A study of Mus musculus with 6 samples.

Results

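A group of 10 mouse genes of thiol and metal defence was followed in RAW 264.7 cells, a macrophage cell line, after 2 h of treatment with bacterial lipopolysaccharide (LPS) at 100 ng/ml together with 100 pM of LPS-binding protein (LBP), against untreated cells cultured for 2 h. They are the metallothionein genes Mt1 and Mt2, and Slc7a11, Gclc, Gclm, Srxn1, Txnrd1, Nqo1, Prdx1 and Sqstm1, chosen by name for glutathione, thioredoxin and metallothionein function. Most of them are known to respond to the transcription factor Nrf2 or to metals. These 10 genes and the gene lists used below were chosen with earlier results of these data known. Their shares of passing genes are therefore description and no test. Every probe whose single annotated gene symbol was one of these names was taken, which gave 12 of 16281 probes and 9 of 10698 genes with such a probe. No probe carried Mt1 as its single symbol. A total of 7 of the genes were measured on all arrays and could be tested: Mt2, Slc7a11, Gclc, Gclm, Srxn1, Txnrd1 and Nqo1. Prdx1 and Sqstm1 had a value on 1 array each.

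Total RNA of treated and of untreated cells shared each of 6 2-colour arrays. On the 3 arrays called Cy5 arrays here the treated RNA carried the dye Cy5, on the 3 Cy3 arrays it carried Cy3, and the labels number each kind as sets 1 to 3. Values are log2 ratios of transcript level, treated over untreated, and a mean ± SD is over the 3 sets (n = 3), each the mean of its 2 dye-swapped arrays. All cells belong to a single cell line, and no source says that the sets were separate cultures, so p-values measure only the spread between sets, which may be technical. LPS and LBP were given together, and their parts cannot be told apart. Ratios hold no expression level, so presence of the macrophage markers could not be read from them; 9 of 10 such markers had a ratio on every array. Of these, Adgre1 (0.83) and Spi1 (0.47) were higher, Fcgr1 (-0.47) and Csf1r (-0.21) were lower, and 5 did not pass, by limma. Of 12 tested markers of other cell types, limma passed 0, with 2 at an unadjusted p under 0.05, and 1 each without set 1 and without set 2. Over all 11231 features tested (genes, or probes without a single symbol), limma passed 7.35% as higher and 7.45% as lower. An unadjusted p under 0.05 was reached by 3150 of these features. In bulk RNA, a change in the number of expressing cells and a change of RNA per cell cannot be told apart. As a check of direction, 10 of 10 genes that LPS is known to induce, among them Tnf, Il1b and Cxcl10, were higher, with a median of 3.17.

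Cells keep their thiol balance through a few linked pathways. Slc7a11 encodes the light chain of the cystine importer xCT, Gclc and Gclm encode the catalytic and the modifier subunit of glutamate-cysteine ligase, which makes the first intermediate of glutathione, and thioredoxin reductase (Txnrd1), peroxiredoxin 1 (Prdx1) and sulfiredoxin (Srxn1), which repairs overoxidised peroxiredoxins, handle protein thiols and peroxides. Nrf2, the product of Nfe2l2, is held for degradation by Keap1 and, when released by oxidants or electrophiles, binds antioxidant response elements with small Maf proteins. Nqo1, a quinone reductase gene, is a standard reporter of that activity, and Sqstm1 encodes p62, an autophagy receptor that binds Keap1. Metallothioneins are small cysteine-rich proteins that bind zinc and copper, and the zinc sensor Mtf1 drives their genes through metal response elements.

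The sequences around the annotated starts of the 3 tested genes with the largest rises are shown because their motif content is set beside their response. Each runs from 250 bases before to 50 after the start on the gene's own strand, from RefSeq on build GRCm38.p6, and capitals mark matches on either strand to the metal response element core (TGCACNC or TGCGCNC), the antioxidant response element core (TGACNNNGC) or the AP-1 site (TGANTCA). A total of 9 of the 10 genes had an entry in the promoter table, Txnrd1 with 3 starts; Gclc had none.
Mt2 promoter (chr8:94172368-94172667, + strand): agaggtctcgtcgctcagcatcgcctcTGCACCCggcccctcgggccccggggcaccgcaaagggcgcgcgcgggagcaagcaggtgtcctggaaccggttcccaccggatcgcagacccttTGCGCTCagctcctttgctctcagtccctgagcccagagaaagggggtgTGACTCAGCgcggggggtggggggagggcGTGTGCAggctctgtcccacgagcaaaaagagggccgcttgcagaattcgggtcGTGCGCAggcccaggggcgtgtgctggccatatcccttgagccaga
Slc7a11 promoter (chr3:50443564-50443863, - strand): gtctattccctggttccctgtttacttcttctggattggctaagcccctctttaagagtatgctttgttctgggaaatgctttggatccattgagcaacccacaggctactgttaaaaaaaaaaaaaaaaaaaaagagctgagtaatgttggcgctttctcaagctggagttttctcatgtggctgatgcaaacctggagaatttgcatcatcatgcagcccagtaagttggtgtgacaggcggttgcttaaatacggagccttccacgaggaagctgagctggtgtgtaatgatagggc
Srxn1 promoter (chr2:152105274-152105573, + strand): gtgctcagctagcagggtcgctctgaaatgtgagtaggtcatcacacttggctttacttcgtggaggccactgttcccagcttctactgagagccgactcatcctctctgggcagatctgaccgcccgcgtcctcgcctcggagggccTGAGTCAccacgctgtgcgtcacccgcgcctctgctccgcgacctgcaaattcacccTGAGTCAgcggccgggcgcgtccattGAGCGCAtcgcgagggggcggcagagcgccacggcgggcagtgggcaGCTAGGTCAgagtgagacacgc

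The Mt2 window held 4 metal response element cores, between positions -223 and 11 from the start. Of 32851 promoter windows of the same length, 25.7% held at least 1 such core and 0.517% held 4 or more. Mt1, the neighbouring metallothionein gene, had 3 cores, all between positions -23 and 27, and Gclm also had 3, between -138 and 34. By letter pattern, TGCACNC occurred in 12.6% and TGCGCNC in 15.4% of all windows. Srxn1 had AP-1 matches starting at -102 and at -45, a metal core at -19 to -13 and an antioxidant core after the start, at 29 to 37. Antioxidant cores lay in the windows of 5 of the 9 genes, Gclm, Mt2, Prdx1, Srxn1 and 1 of the starts of Txnrd1, against 12.4% of all windows. AP-1 matches lay in those of 3 genes, Mt2, Prdx1 and Srxn1, against 7.81% of all windows. The single antioxidant core of Mt2, at -79 to -71, overlapped an AP-1 match, as did that of Prdx1, and that of Gclm, at -134 to -126, overlapped a metal core. No match of these 3 kinds lay in the windows of Slc7a11, Nqo1 and Sqstm1, which says only that these letters are not in this stretch. A looser NF-κB pattern, GGG and CC with any 5 bases between them, was in 50.8% of all windows and in those of 7 of the genes, all but Mt2 and Nqo1. The counts are of genes and the shares of windows, and Txnrd1 had 3 windows, any of which could count. Most of the genes are known to respond to Nrf2 or to metals, so a high count is no finding of these data. All matches are letters in a window and not measured binding.

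**Figure D1:**
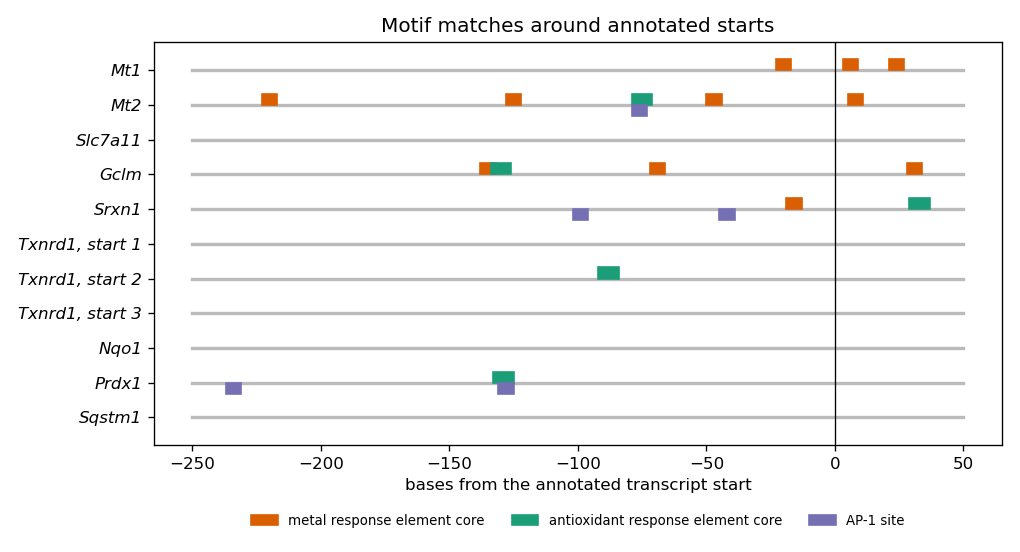
Motif matches around the annotated starts of the genes, in bases from the start (horizontal axis), a row for each start. Orange boxes are metal response element cores, green boxes antioxidant response element cores and purple boxes, below the line, AP-1 sites. Mt2 carries 4 orange boxes, and Slc7a11, Nqo1 and Sqstm1 carry none of the 3 kinds.

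After 2 h with LPS and LBP, 4 of the 7 tested genes were higher (Mt2, Slc7a11, Srxn1 and Txnrd1), 1 was lower (Gclc) and 2 did not pass (Gclm and Nqo1), at an adjusted p under 0.05 by limma. Over all 11231 features tested, 14.8% passed, 7.35% higher and 7.45% lower. The median log2 ratio of the 7 genes was 0.25, against -0.00 for all features. A total of 5 of the 7 had the same sign on all 6 arrays, as did 19.1% of all features. Both genes of glutamate-cysteine ligase had a mean below 0, and the other 5 were above it. The signs of Gclm and of Nqo1 (mean 0.00) are not settled, since each turned in some of the alternative fits. Txnrd1 and Gclc did not pass without set 1 or without set 3, which left 3 higher and 0 lower genes by limma (Gclc adjusted p = 0.0671 and 0.0832). In those fits 5.09% and 3.13% of all features were higher and 4.31% and 1.88% lower.

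**Figure D2:**
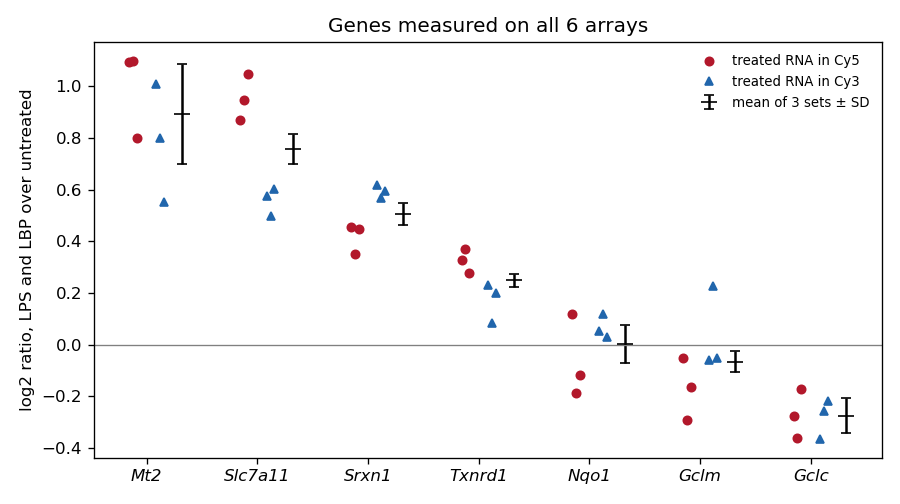
Log2 ratio of treated over untreated (vertical axis) for the 7 genes measured on all 6 arrays, ordered by mean. Red circles are Cy5 arrays, blue triangles are Cy3 arrays, and black bars are the mean of 3 sets ± SD. Mt2, Slc7a11, Srxn1 and Txnrd1 lie above 0 on every array and Gclc below 0 on every array.

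Mt2 had the largest rise of the 7 tested genes. Its log2 ratios in sets 1 to 3 were 1.10, 1.10 and 0.80 on the Cy5 arrays, and 1.01, 0.80 and 0.55 on the Cy3 arrays. All 6 arrays showed more Mt2 transcript after treatment, and set 3 was the lowest of each kind. The mean was 0.89 ± 0.19 (SD, n = 3), a 1.86-fold rise (limma adjusted p = 0.000851, higher on 6 of 6 arrays), and its 95% confidence interval ran from 0.70 to 1.08. The call held without any single set or array and in each dye orientation alone. Mt2 ranked 141st from the top of 11231 features. The other metallothionein genes with a tested probe, Mt3 (0.11 ± 0.04, limma adjusted p = 0.193) and Mt4 (-0.05 ± 0.11, limma adjusted p = 0.609), did not pass. The named genes whose ratios over the 6 arrays lay closest to those of Mt2 were Jund (mean absolute difference 0.10), Fosl1 (0.11) and Adgre1 (0.12).

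Slc7a11, the cystine importer gene, came next by its completely measured probe. That probe stood at 0.87, 0.95 and 1.05 on the Cy5 arrays, and at 0.58, 0.50 and 0.60 on the Cy3 arrays. Every array was positive, but the orientations did not overlap, and the Cy5 arrays averaged 0.96 ± 0.09 and the Cy3 arrays 0.56 ± 0.05 (SD over 3 arrays each). The dye part of the ratio, fitted with limma on the 6 arrays, was 0.20 with adjusted p = 0.0657. By limma 0 of the 7 genes passed for a dye part, 2 having an unadjusted p under 0.05, and 0.499% of all features passed. That fit counted the 6 arrays as independent, although same-numbered arrays shared part of their deviations, so its p-values may be too small. The average over both orientations, in which a dye part cancels, was 0.76 ± 0.06 (n = 3 sets), a 1.69-fold rise (limma adjusted p = 0.000242, 6 of 6 arrays), with a 95% confidence interval from 0.64 to 0.87.

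A second Slc7a11 probe, measured on 4 arrays, gave other values. Turned to treated over untreated, it read -1.98, -1.41 and -0.85 on the Cy5 arrays and 1.72 on the only Cy3 array with a value, that of set 2. All 4 values thus leaned to Cy3, whichever RNA that dye carried, with a dye part of -1.57 and a treatment part of 0.15. Combining the probes with missing values allowed lowered the Slc7a11 mean to 0.27 (limma adjusted p = 0.152). With zeros kept as measured ratios of 0, it was 0.17 (limma adjusted p = 0.415). The rise of Slc7a11 therefore rests on the complete probe. The heavy chain gene of the importer, Slc3a2, stood at 0.17 ± 0.02 (limma adjusted p = 0.0507).

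**Figure D3:**
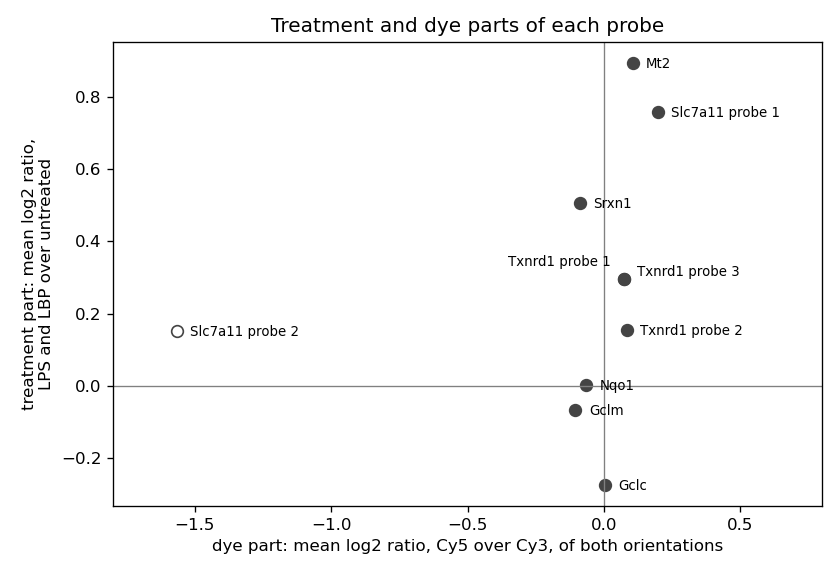
Treatment part (vertical axis, log2 ratio of treated over untreated, averaged over the orientations) against dye part (horizontal axis, log2 ratio of Cy5 over Cy3, averaged over the orientations) of the 10 probes measured on at least 4 arrays. Filled points had a value on all 6 arrays; the open point, the second Slc7a11 probe, had 4 and lies at a dye part of -1.57, far from the others.

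Srxn1, the sulfiredoxin gene, had the next largest rise. It read 0.46, 0.35 and 0.45 on the Cy5 arrays and 0.62, 0.57 and 0.59 on the Cy3 arrays. Here the Cy3 arrays were the higher ones, again without overlap, and all 6 arrays were positive. The mean was 0.51 ± 0.04, a 1.42-fold rise (limma adjusted p = 0.000996, 6 of 6 arrays), with a 95% confidence interval from 0.39 to 0.62. The call held in each orientation alone and without any single set or array.

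Txnrd1, which encodes the cytosolic thioredoxin reductase, had a smaller rise. The mean of its 3 probes was 0.33, 0.37 and 0.28 on the Cy5 arrays and 0.23, 0.09 and 0.20 on the Cy3 arrays. All arrays were positive, and the Cy3 array of set 2 was the lowest. The mean over sets was 0.25 ± 0.03, or 1.19-fold (limma adjusted p = 0.0143, 6 of 6 arrays). The probes had means of 0.30, 0.16 and 0.30, and tested alone the second of these did not pass (limma adjusted p = 0.111, 5 of 6 arrays). Adjusted p by limma was 0.0614 without set 1, 0.142 without set 3, 0.0549 on the Cy5 arrays alone and 0.175 on the Cy3 arrays alone. When 1 array was left out, Txnrd1 did not pass without any of the arrays of sets 1 and 2 (limma adjusted p from 0.0518 to 0.267) and passed without either array of set 3. The mitochondrial thioredoxin reductase gene Txnrd2 stood at 0.07 ± 0.02 (limma adjusted p = 0.392).

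Gclc, the catalytic subunit gene of glutathione synthesis, went the other way. It read -0.28, -0.36 and -0.17 on the Cy5 arrays and -0.36, -0.26 and -0.22 on the Cy3 arrays. It was below 0 on all 6 arrays, with nearly the same mean in both orientations (-0.27 on Cy5 arrays and -0.28 on Cy3 arrays) and a dye part of 0.01. The mean of -0.27 ± 0.07 is a 1.21-fold fall (limma adjusted p = 0.0144, 6 of 6 arrays). Gclc did not pass in either orientation alone (limma adjusted p = 0.0958 for Cy5 and 0.0829 for Cy3). When 1 array was left out, it did not pass without the Cy5 array of set 2 (limma adjusted p = 0.136), the Cy3 array of set 1 (0.0628) or the Cy3 array of set 2 (0.0678). Its mean stayed between -0.31 and -0.25 in all alternatives tried. The named genes closest to Gclc over the 6 arrays were Tulp4, Slc19a2 and Fbxo8, at mean absolute differences of 0.03, 0.04 and 0.04.

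Gclm, the modifier subunit gene, read -0.05, -0.29 and -0.17 on the Cy5 arrays and -0.06, 0.23 and -0.05 on the Cy3 arrays. The arrays of set 2 pointed in opposite directions. Its mean was -0.07 ± 0.04 (limma adjusted p = 0.419), with a 95% confidence interval from -0.18 to 0.04. This interval lies below the ratio of Srxn1, but it rests on 1 probe whose closeness to background could not be judged. Gclc minus Gclm was -0.26, -0.28 and -0.09 in sets 1 to 3, a mean difference of -0.21 ± 0.11. An exact sign permutation test of this difference over the 3 sets gave a two-sided p of 0.25, the smallest that 3 sets allow.

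Nqo1 read 0.12, -0.19 and -0.12 on the Cy5 arrays and 0.05, 0.12 and 0.03 on the Cy3 arrays. Its arrays lay on either side of 0, 4 of 6 above. The mean was 0.00 ± 0.07 (limma adjusted p = 0.983), with a 95% confidence interval from -0.12 to 0.12. Its sign is not settled. The interval describes the ratio of 1 probe by the spread between sets. Closeness to background could not be judged, so the interval does not bound the change of the Nqo1 transcript at 2 h.

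The remaining genes had too few values for a test. Sqstm1 read 1.70 on the Cy5 array of set 1, a 3.24-fold ratio, and had no value elsewhere. Of the 14255 values of that array, 103 (0.723%) were as high or higher. Prdx1 read 0.14 on the same array and on no other. With 1 orientation, a dye part cannot be separated for either. Probes with a value on a single array numbered 228, and 32.5% of those values were over 1 in size, against 1.97% of the values of completely measured probes.

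Other genes of the same pathways were read from 7 lists, which were also chosen with earlier results of these data known. Of 137 tested, 16 were higher (11.7%) and 14 lower (10.2%), against 7.35% and 7.45% of all features, with a median of -0.02. Without set 1 the counts were 9 and 7, against 5.09% and 4.31% of all features in that fit. Without set 2 they were 18 and 12, against 7.6% and 7.4% of all features. Without set 3 they were 7 and 2, against 3.13% and 1.88% of all features. Of the 25 list genes that passed and are named under the rule, 5 passed in every limma fit without 1 set or 1 array: Cdkn1a, Maff, Mafk, Slc31a2 and Slc39a13. Among these, Maff (limma adjusted p = 0.0598) and Slc39a13 (0.0501) did not pass on the Cy5 arrays alone.

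Metallothioneins and metal transporters had 5 higher (22.7%) and 2 lower (9.09%) genes among 22 tested, with a median of 0.02. Over all features 7.35% were higher and 7.45% lower. The counts were 3 and 1 without set 1, 7 and 2 without set 2, and 3 and 0 without set 3. In those fits 5.09%, 7.6% and 3.13% of all features were higher and 4.31%, 7.4% and 1.88% lower. Mtf1, the zinc sensor that drives Mt2, stood at 0.51, 0.04 and 0.21 in sets 1 to 3 and did not pass (0.25 ± 0.24, limma adjusted p = 0.126). Without set 1 it was 0.12 (limma adjusted p = 0.274), without set 2 0.36 (0.00456) and without set 3 0.27 (0.36). Mtf1 passed in 0 of the 6 fits without 1 array. Slc30a1, a zinc exporter gene that Mtf1 also drives, rose 1.52-fold (0.61 ± 0.02, limma adjusted p = 0.000433, 6 of 6 arrays), but did not pass on the Cy5 arrays alone (adjusted p = 0.125) or without the Cy3 array of set 1 (adjusted p = 0.122). Its single arrays ran from 0.10 to 1.06, both in set 1, and its probes had means of 0.47 and 0.75. On the arrays of set 1 the second probe read -0.19 (Cy5) and 1.30 (Cy3). The largest ratio in any of the lists was that of Slc31a2, which encodes the copper transporter-like protein CTR2, at 1.80 ± 0.05 (3.48-fold, limma adjusted p = 1.07e-05, 6 of 6 arrays). The zinc importer family gene Slc39a13 was higher at 0.42 ± 0.08 (limma adjusted p = 0.0034), and Slc30a5, of the zinc transporters of the secretory pathway, lower at -0.34 ± 0.09 (limma adjusted p = 0.00865, and 0.108 without set 3).

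Other genes of glutathione synthesis, breakdown and reduction had 2 higher (7.69%) and 3 lower (11.5%) among 26 tested, with a median of -0.02. Over all features 7.35% were higher and 7.45% lower. Without set 3 the list had 0 higher and 2 lower, against 3.13% and 1.88% of all features. Glutathione synthetase (Gss, 0.11 ± 0.06, limma adjusted p = 0.209), which acts after the ligase, and glutathione reductase (Gsr, -0.16 ± 0.12, limma adjusted p = 0.149) did not pass. Glutaredoxin (Glrx) rose 1.32-fold (0.40 ± 0.11, limma adjusted p = 0.0059, and 0.0847 without set 3). Slc1a4, a neutral amino acid transporter gene (-0.66 ± 0.07, limma adjusted p = 0.000456; a second probe on 5 arrays averaged 0.23), Ggt6 (-0.47 ± 0.06, limma adjusted p = 0.00166) and Chac2, whose product degrades glutathione (-0.26 ± 0.14, limma adjusted p = 0.0456), were lower, Chac2 in 0 of the 6 fits without 1 array. Slc1a4 did not pass without the Cy5 array of set 2 (limma adjusted p = 0.16) or on the Cy3 arrays alone (0.125), and with its second probe entered its mean was -0.28, or -0.23 with zeros kept. Ggt6 did not pass without the Cy3 array of set 1 (limma adjusted p = 0.078) or on the Cy5 arrays alone (0.0953). Glutathione transferases had 1 higher gene, Gstt4 (0.47 ± 0.23, limma adjusted p = 0.0168, and 0.0666 without set 1 and 0.146 without set 3), and 1 lower, Hpgds (-0.40 ± 0.13, limma adjusted p = 0.00814, and 0.101 without set 3), among 20 tested, with a median of -0.04. Each is 5% of that list, against 7.35% of all features higher and 7.45% lower.

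Among thioredoxins, peroxiredoxins and genes of sulfur repair, limma passed 0 of 16 as higher and 1 (6.25%) as lower, with a median of -0.03. Over all features 7.35% were higher and 7.45% lower. Of the 16, 4 had an unadjusted p under 0.05 in either direction, as did 3150 of all 11231 features. The lower gene was Msrb2, a methionine sulfoxide reductase gene (-0.53 ± 0.16, limma adjusted p = 0.00389, and 0.051 without set 3). The peroxiredoxin genes Prdx2, Prdx3 and Prdx4 lay between -0.06 and -0.02 and did not pass.

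Genes of Nrf2, its partners and its repressors had 5 higher (33.3%) and 2 lower (13.3%) members among 15 tested, with a median of 0.05. Over all features 7.35% were higher and 7.45% lower. Without set 3 the list had 3 higher and 0 lower, against 3.13% and 1.88% of all features. Nfe2l2 itself was lower at -0.22 ± 0.08 (limma adjusted p = 0.0362, 6 of 6 arrays), and Keap1 at -0.25 ± 0.09 (limma adjusted p = 0.0258, 5 of 6 arrays). Nfe2l2 passed in 0 and Keap1 in 1 of the 6 limma fits without 1 array, and Keap1 averaged -0.04 on the Cy3 arrays alone. Bach1, which represses antioxidant response elements, did not pass (-0.08 ± 0.15, limma adjusted p = 0.523). The small Maf genes Maff (0.92 ± 0.23, 1.89-fold, limma adjusted p = 0.00128) and Mafk (0.42 ± 0.00, 1.33-fold, limma adjusted p = 0.00188) were higher on 6 of 6 arrays and passed without any single set, while Mafg stood at -0.11 ± 0.01 (limma adjusted p = 0.17). Cdkn1a, whose product p21 binds Nrf2 (0.76 ± 0.10, limma adjusted p = 0.000394, from probes at 1.07, 0.94 and 0.28), and the kinase gene Prkcd (0.33 ± 0.03, limma adjusted p = 0.00502, and 0.0832 without set 3) were also higher.

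Other known Nrf2 targets had 2 higher (9.09%) and 2 lower (9.09%) genes among 22 tested, with a median of -0.03. Over all features 7.35% were higher and 7.45% lower. Without set 1 or without set 3 limma passed 0 of the list. In those fits 5.09% and 3.13% of all features were higher and 4.31% and 1.88% lower. Over all sets 9 of the 22 had an unadjusted p under 0.05, as did 3150 of all 11231 features. Heme oxygenase 1 (Hmox1) was higher at 0.24 ± 0.09 (1.18-fold, limma adjusted p = 0.0306). It read 0.52, 0.48 and 0.26 on the Cy5 arrays but 0.13, 0.01 and 0.03 on the Cy3 arrays. Malic enzyme (Me1, 0.18 ± 0.05, limma adjusted p = 0.0471) was higher, and isocitrate dehydrogenase (Idh1, -0.25 ± 0.06, limma adjusted p = 0.0192) and Osgin1, an oxidative stress-induced growth inhibitor gene (-0.92 ± 0.48, limma adjusted p = 0.0142), were lower. Me1 passed in 0 of the limma fits without 1 set and in 0 of those without 1 array. Autophagy receptors and partners of p62 had 1 higher gene, Gabarapl1 (0.39 ± 0.08, limma adjusted p = 0.00423), and 3 lower genes, Nbr1 (-0.32 ± 0.04, limma adjusted p = 0.00599), Atg7 (-0.23 ± 0.06, limma adjusted p = 0.0252) and Map1lc3b (-0.22 ± 0.08, limma adjusted p = 0.0401), among 16 tested, with a median of -0.03. The higher and lower genes are 6.25% and 18.8% of this list, against 7.35% and 7.45% of all features. Without set 3, Gabarapl1 alone of the list passed, when 3.13% of all features were higher and 1.88% lower. Atg7 passed in 0 of the limma fits without 1 set and in 1 of those without 1 array, and Map1lc3b in 1 of each kind.

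**Figure D4:**
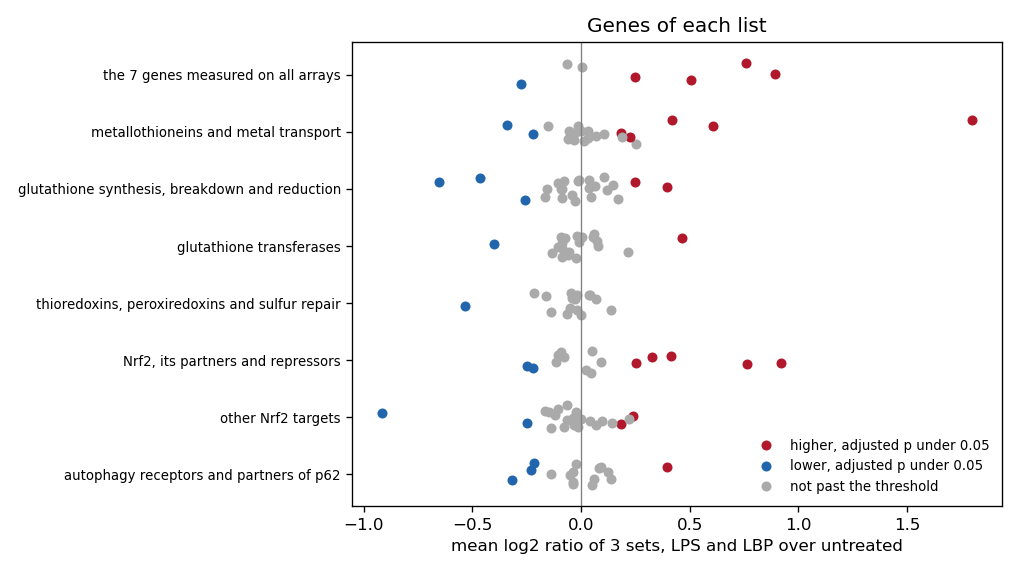
Mean log2 ratio of 3 sets, treated over untreated (horizontal axis), of every tested gene, by list (rows; vertical scatter within a row has no meaning). Red points were higher and blue points lower with a limma adjusted p under 0.05, and grey points did not pass; Slc31a2, at 1.80, is the point farthest to the right and Osgin1, at -0.92, the one farthest to the left.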

How the data were processed

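The authors deposited log2 ratios of both channels, 1 value for each probe on each of 6 arrays (16281 probes). No source states their direction; Cy5 over Cy3 was taken from the channel order per the labels. Dye normalization, background correction and software were not named in the labels or file header. Intensities were not used, so closeness to background cannot be judged, and precision rests on the array number. Exact zeros (10.8%) were treated as missing, and Cy3 arrays were multiplied by -1. Complete probes (13224) were averaged by gene through the platform annotation (13738 probes with 1 symbol, 52 with several, 2491 with none), which gave 11231 features.

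Both arrays of a set were averaged. The mean of the 3 sets was tested for a difference from 0 with limma 3.58.1 (R 4.3.3, lmFit and eBayes, two-sided). Benjamini-Hochberg adjustment was over all features, at 0.05. The steps were also run on simulated data with independent noise for each array, so deviations shared within a set were not tried. Before signs were turned, deviations of same-numbered arrays from their orientation's mean correlated across features with r of 0.40, 0.43 and 0.14. Arrays of different numbers gave r from -0.42 to 0.01. Deviations from a mean of 3 arrays sum to 0, which ties these values to each other. The set numbers, which the labels give, were taken to pair the arrays, with the weakest correlation in set 3. Once signs are turned, a deviation shared by same-numbered arrays has opposite signs on the arrays of a set and partly cancels in their mean. The SD over sets can thus lie far below the spread of the arrays. For Mafk the SD was 0.0039, with arrays from 0.34 to 0.48. What the arrays of a set share was not tested.

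The members and lists were chosen with earlier results of these data known. All 10 genes are named; of each list up to 4 passing genes with the largest change are named, and Nfe2l2, Keap1, Bach1, Mtf1 and Hmox1 always, as are the 3 closest profiles of the members with the largest rise and fall. Mt3, Mt4, Slc3a2, Txnrd2, Gss, Gsr, Mafg and the other peroxiredoxins were picked after their values were seen. Alternatives were other fits, sets, orientations, scalings and handlings of zeros and probes.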

Additional observations from a re-analysis of the deposited data

Results flagged for a closer look

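Among the 34 tested genes named here under the stated rule, the 6 arrays of a gene were compared for 1 array that stands apart by Dixon's criterion, which chance meets in about 1 in 20 groups. A total of 2 genes met it, neither of them among the 10 followed. For Hpgds the Cy5 array of set 1 read -0.0825, against -0.53 to -0.40 on the other arrays. For Bach1 the Cy3 array of set 2 read 0.628, against -0.46 to -0.06 on the other arrays.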

How the results depend on the processing

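Mt2 and Srxn1 kept their direction and call in all 22 alternatives, with means from 0.79 to 1.00 and from 0.42 to 0.59; Slc7a11 lost its call in the 2 alternatives where its second probe entered. Gclc lost its call in 8 of 22 alternatives and Txnrd1 in 10 of 24 (its 3 probes counted singly), without change of direction. Leaving out 1 set or array gave 3 to 4 higher and 0 to 1 lower of the 7 genes, 6 to 18 higher and 1 to 12 lower list genes, and 352 to 854 higher and 181 to 831 lower features. The Cy5 arrays alone gave 0 lower genes of the 7, 6 higher and 5 lower list genes, 347 higher and 292 lower features. The Cy3 arrays alone gave 0 lower genes, 6 higher and 2 lower list genes, and 408 higher and 247 lower features. These fits hold fewer arrays; no other cause was tested. A test against a 1.2-fold change (limma's treat) gave 0 lower genes, 4 higher and 1 lower list genes, and 264 higher and 130 lower features. With the set as a random replicate block (consensus correlation -0.44) the 6 arrays gave 4 higher and 1 lower of the genes, 18 and 19 list genes and 1089 and 1193 features. Without a block they gave 4 and 1 of the genes, 13 and 11 list genes and 690 and 686 features. The block changed no call of the 7 genes. Without it, Keap1 (limma adjusted p = 0.142), Hmox1 (0.118), Chac2 (0.107), Gstt4 (0.0641) and Map1lc3b (0.125) did not pass. Nqo1 turned to -0.0613 on the Cy5 arrays alone, -0.00257 with arrays scaled to 1 spread and -0.00264 after quantile normalization, and ran from -0.0481 to 0.0532 without 1 set or array. Gclm turned to 0.0385 on the Cy3 arrays alone and ran from -0.153 to 0.0212 without 1 set or array. Bach1 turned to 0.0673 on the Cy3 arrays alone and ran from -0.259 to 0.105. A filter on dim probes was not run, since ratios hold no intensity.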

Other observations

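Several genes of these pathways had too few values for any comparison. Thioredoxin 1 (Txn1) read 0.29 on the Cy5 array of set 1 alone, the ferritin light chain gene Ftl1 0.01 on the same array alone, and the selenoprotein gene Selenow 0.22 on the Cy5 array of set 2 alone. The ferritin heavy chain gene Fth1 and Hagh, a glyoxalase gene, had no value. Gpx1, which encodes the main cytosolic glutathione peroxidase, had a mean of -0.09 over 4 arrays, from -0.41 to 0.08. Taldo1, a pentose phosphate pathway gene, was below 0 on all 4 of its arrays, with a mean of -0.12, as was Nfe2, a relative of Nfe2l2, with a mean of -0.19. Nr0b1, a nuclear receptor gene, was above 0 on all 4 of its arrays, with a mean of 0.23.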
